A study of Mus musculus with 3 samples.

Results

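Heat shock chaperones are proteins that bind unfolded or newly made polypeptides and help them fold, and 10 of their genes were followed here in mouse embryonic stem (ES) cells with reduced NUP153, a nucleoporin of the nuclear basket. The genes were listed by name as cytosolic and mitochondrial members of the family. The list uses no measured value, but it was drawn up with earlier results of these data known. They are Hspa1a, Hspa1b, Hspa8, Hsph1, Dnajb1, Hsp90aa1, Hsp90ab1, Hspb1, Hspd1 and Hspe1. All 10 of 10 were among the 24421 genes counted, and averaged over the libraries all had at least 10 reads, as had 16670 of all genes. RNA-Seq was performed on 3 libraries of the female line EL 16.7 (background F2:129S1/CastEiJx 129S1), which was kept undifferentiated with LIF on γ-irradiated fibroblasts from Tg(DR4)1Jae/J mice. Each library comes from cells transduced with lentivirus, carrying a scrambled shRNA (control, labelled wild type) or shRNA-1 (NUP153 KD-1) or shRNA-2 (NUP153 KD-2), then selected with 2 μg/ml puromycin for 2 days. Since each condition is a single library, the spread between replicates is unknown, and every value compares libraries rather than conditions.

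When proteins unfold, heat shock transcription factors such as HSF1 bind heat shock elements, inverted repeats of the unit GAA, and raise transcription of these genes. In unstressed cells the constitutive members, HSPA8 and the HSP90 proteins, are among the most abundant proteins, while the inducible HSP70 genes are kept low. HSP70 proteins work with J-domain partners such as DNAJB1 and with nucleotide exchange factors such as HSPH1. HSP90 completes the folding of kinases and receptors, HSPD1 and HSPE1 form the folding chamber of mitochondria, and small heat shock proteins such as HSPB1 hold unfolded proteins for refolding. ES cells are known for a high basal level of several of them.

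Promoter sequences show what the genes share upstream. RefSeq promoter windows (GRCm38.p6) were found for 7 of the 10 genes, and the 250 bases before each start were searched for paired units, GAANNTTC or TTCNNGAA, both of which read the same on either strand. Of these 7 genes, 6 held such a pair in at least 1 window, beside 14.5% of all 27025 genes with a window. Counted by window, since Hspd1, Hsph1 and Dnajb1 have more than 1 start, 7 of 10 held a pair, beside 12.8% of all 32851 windows of that length. These counts are not of separate sequences. The windows of Hspa1a and Hspa1b are nearly identical, Hspd1 and Hspe1 hold the same element, and the overlapping Hsph1 windows hold the same match. The stretches printed here run 5′ to 3′ on the gene's strand, from 150 to 21 bases before the start, with paired units in capitals. They are shown because Hspa1a and Hspa1b differed most from control in KD-2, and Hsph1 in KD-1. Hspa1a lies at chr17:34972177-34972306, Hspa1b at chr17:34959259-34959388 and Hsph1 at chr5:149636357-149636486, all on the minus strand.
Hspa1a: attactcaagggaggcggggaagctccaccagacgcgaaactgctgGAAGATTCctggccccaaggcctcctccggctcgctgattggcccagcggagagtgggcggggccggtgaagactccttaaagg
Hspa1b: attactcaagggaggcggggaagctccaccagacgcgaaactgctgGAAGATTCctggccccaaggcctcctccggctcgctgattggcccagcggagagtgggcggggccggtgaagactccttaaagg
Hsph1: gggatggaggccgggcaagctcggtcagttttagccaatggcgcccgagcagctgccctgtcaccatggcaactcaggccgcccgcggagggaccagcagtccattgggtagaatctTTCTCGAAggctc

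The printed stretches of Hspa1a and Hspa1b have 0 differences, and their full windows of 250 bases differ at 3 positions. Hspb1, at chr5:135887769-135887898 on the plus strand, carries a pair of GAANNTTC matches, and its stretch is shown because this gene was above control in both knockdown libraries.
Hspb1: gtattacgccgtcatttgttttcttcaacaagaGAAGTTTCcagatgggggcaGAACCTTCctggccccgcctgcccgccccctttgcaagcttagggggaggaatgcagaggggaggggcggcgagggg

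Hspd1 and Hspe1 are head-to-head neighbours on chromosome 1, and a window of each holds the same element, read from opposite strands. For Hspd1 this is 1 of its 2 windows, and the other, before the start of the annotated gene, holds no paired units. The element lies downstream of that outer start. It joins 4 alternating units without a break, TTC and GAA spaced by 2 bases each, which 4 of the 32851 windows hold (0.0122%), a window of each gene included. The 30 bases around it, chr1:55088053-55088082, are given with the element in capitals.
Hspe1, plus strand: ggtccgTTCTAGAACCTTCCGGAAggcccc
Hspd1, minus strand: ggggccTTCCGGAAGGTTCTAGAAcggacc

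The element begins 89 bases before the Hspe1 start and 144 bases before a start of Hspd1. The form with 3 alternating units at the same spacing, on either strand, was found in no other member with a window, and in 0.466% of all windows. CCAAT or its reverse complement ATTGG was found in 4 of the 7 genes (Dnajb1, Hspa1a, Hspa1b and Hsph1), beside 37.5% of all genes, and TATAAA on the gene's strand in 0 of 7, beside 8.94%. By window these were 5 of 10, beside 33.8%, and 0 of 10, beside 7.59%. The CCAAT counts again include the nearly identical Hspa1a and Hspa1b, and by window the same matches in the overlapping Hsph1 windows. Dnajb1 held no paired units in its windows, which says only that these letters are not there. No window was used for Hsp90aa1, Hsp90ab1 and Hspa8. A match is a description of sequence, and binding was not measured in these libraries.

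The libraries held between 69839336 and 85258834 reads on genes. Nup153, the targeted gene (chromosome 13, 46679905 to 46727940, GRCm38), went from 27870 reads (control) to 16451 (KD-1) and 11126 (KD-2). On the log2 scale it differed from control by -0.99 in KD-1 and by -1.43 in KD-2. Undifferentiated ES cell markers were present in all libraries, with Pou5f1 between 32962 and 45092 reads and Nanog between 39339 and 61737. Fibroblast markers, which the feeder cells express, were present too and moved with the libraries. The level of all 12, summed as reads per kilobase of exon scaled by all reads on genes (RPKM), was 819 (control), 504 (KD-1) and 1238 (KD-2). Of these 12 markers, 12 were below control in KD-1 and 12 were above it in KD-2, and none was at 0. Fold changes below are from counts scaled by upper-quartile normalization, and a gene is named as past the threshold when it differs by more than 1.5-fold. Intervals are exact conditional 95% intervals of the ratio of 2 counts, which cover counting error only and not the choice of scaling. In bulk RNA, fewer cells of a type and less RNA per cell cannot be told apart.

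Compared per length, the chaperone genes spanned a wide range of expression. In control, Hsp90aa1 was at 1539 RPKM, rank 19 of 16047 genes with a length and enough reads. Hspa8 followed at 1161 RPKM, Hsp90ab1 at 877 RPKM, Hspd1 at 747 RPKM and Hspe1 at 444 RPKM, all within the first 114 ranks. Hspb1 was at 117 RPKM, Dnajb1 at 21.9 RPKM and Hsph1 at 16.6 RPKM. The inducible HSP70 genes were last, with Hspa1b at 1.25 RPKM and Hspa1a at 0.354 RPKM, the latter with 23.4% of the ranked genes below it. The order of neighbours changed in KD-1, where Hspa8 (1254 RPKM) was above Hsp90aa1 (1123 RPKM) and Hsph1 (27.0 RPKM) above Dnajb1 (22.8 RPKM). In KD-2 the order was that of control. With 1 library each, whether neighbours in this order differ could not be tested. The order also depends on the length used, the union of all annotated exons with retained introns, which was 4301 bases for Hspa8 and 7266 for Hsph1. Together the 10 genes took 1.66% of all gene reads (control), 1.53% (KD-1) and 1.27% (KD-2).

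**Figure D1:**
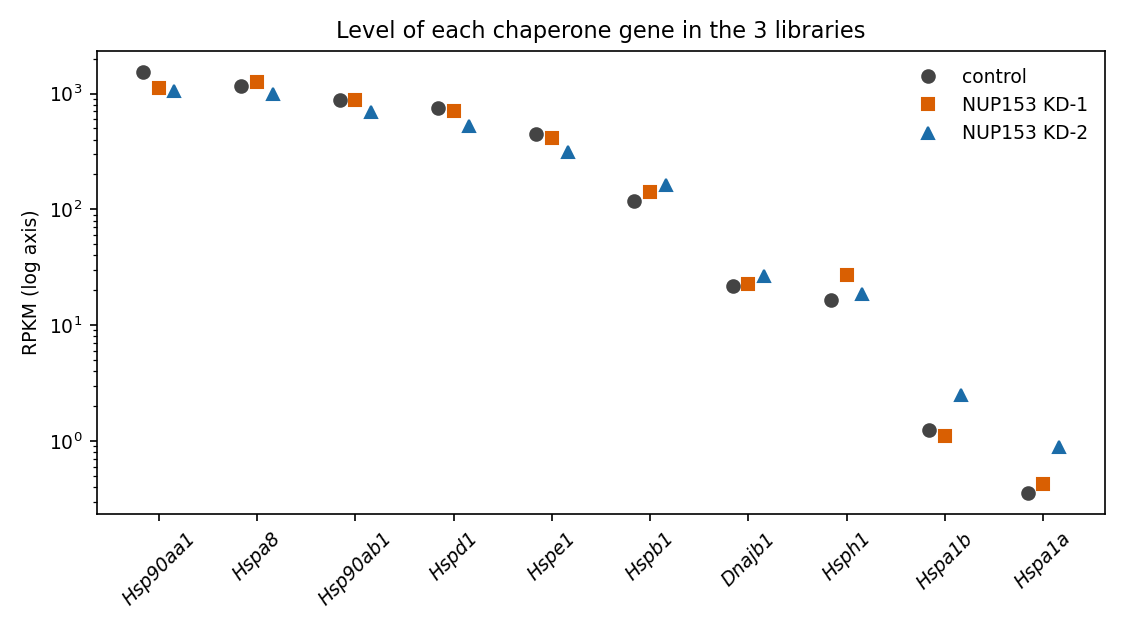
Level of each of the 10 chaperone genes in RPKM (log axis) in the control, NUP153 KD-1 and NUP153 KD-2 libraries, 1 point per library, ordered by the level in control. Levels run from 1539 RPKM for Hsp90aa1 to 0.354 RPKM for Hspa1a in control, and the KD-2 points lie lowest for the 5 most expressed genes and highest for Hspb1, Dnajb1, Hspa1b and Hspa1a.

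Reads of several members cannot be placed with certainty, because copies of their sequence exist elsewhere. The methods describe reads of 50 bases and a mapping quality above 30, which a read with several equal placements does not reach, but they give this filter for featureCounts, while the labels name HTSeq. Whether it was applied to the counts used here is therefore not known. Of the 50-base words in the GENCODE transcripts of Hspa1a, 60.4% also occur in a gene at another position, mostly Hspa1b, and of those in Hspa1b 62.3%. For Hsp90aa1 it was 47.5%, with the largest share in Gm12346, for Hspb1 50.1%, mostly in Hsp25-ps1, for Hspd1 39.7%, mostly in Hspd1-ps3, and for Hspa8 37.0%. Hspe1 shared 18.4%, Hsp90ab1 3.44% and Dnajb1 0.412%. Hsph1 shared 0%, so that its count is the one least touched by copies. Such a filter would drop reads that lie wholly within shared words, and without it they could be counted for another copy, so the counts of these genes are uncertain.

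In NUP153 KD-1, 1 of the 10 genes was past 1.5-fold above control and 0 were past 1.5-fold below it. Among all 16670 genes the shares were 8.63% above and 5.62% below. The gene was Hsph1, the HSP110 exchange factor of HSP70. The median log2 fold change of the 10 genes was 0.03, beside 0.02 over all genes, with 5 genes above and 5 below 0. With DESeq2's size factors the 2 medians were -0.04 and -0.05.

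In NUP153 KD-2, 2 of the 10 genes were past 1.5-fold above control (17.1% of all genes) and 3 were past 1.5-fold below it (10.2% of all genes). Hspa1a and Hspa1b were higher, and Hsp90aa1, Hspd1 and Hspe1 were lower. Scaled by library totals instead, which shifts the median of all genes in KD-2 from -0.02 to 0.14, the last 3 lay at -0.55, -0.51 and -0.50 and were no longer past the threshold. The median log2 fold change of the 10 genes was -0.18, beside -0.02 over all genes, and the genes spread from -0.71 to 1.17 on this scale, against -0.45 to 0.71 in KD-1. Compared directly, 2 genes were past 1.5-fold higher in KD-1 than in KD-2 (Hsph1 and Hspd1, beside 13.9% of all genes) and 2 lower (Hspa1a and Hspa1b, 16.1%). The call of Hspd1, at 0.60, was lost with TMM (0.54), with DESeq2's size factors (0.50), with library totals (0.43) and with upper quartiles over genes averaging at least 10 reads (0.55), and that of Hsph1, at 0.69, with library totals (0.52). Both knockdowns are set against the same control library, so their values are given side by side and not as independent of each other.

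**Figure D2:**
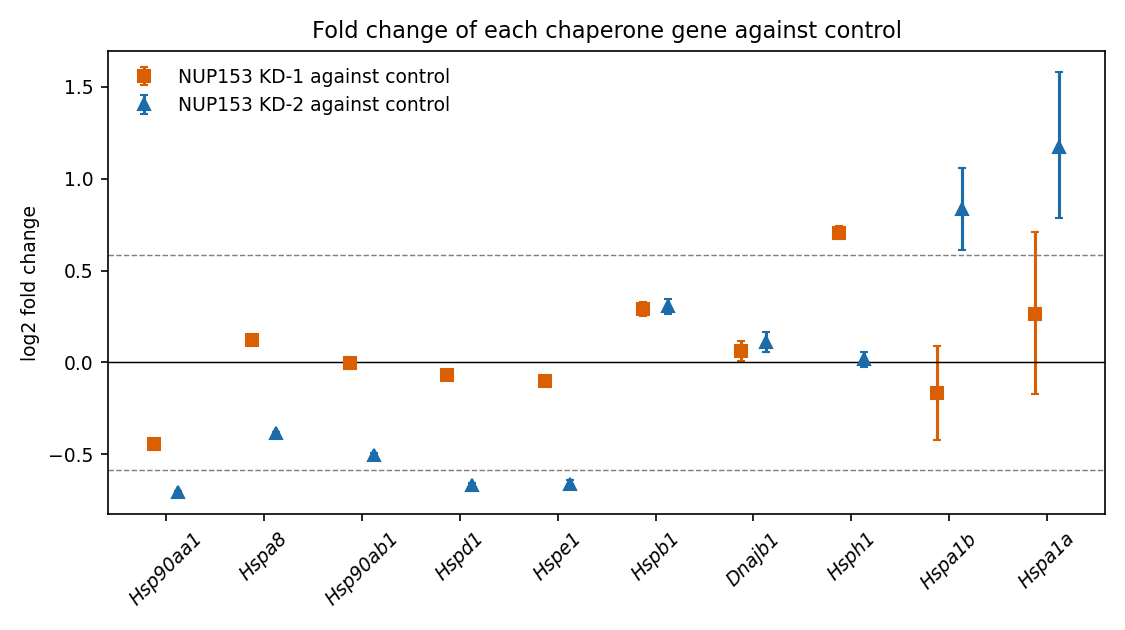
Log2 fold change of each gene in NUP153 KD-1 (squares) and NUP153 KD-2 (triangles) against control, with exact 95% counting intervals and dashed lines at 1.5-fold, ordered by level in control. In KD-2 the 5 most expressed genes lie between -0.71 and -0.38, and Hspa1b and Hspa1a lie at 0.83 and 1.17, while in KD-1 Hsph1 is highest at 0.71.

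The inducible HSP70 genes Hspa1a and Hspa1b are single-exon genes on chromosome 17 (34969190 to 34972156 and 34956436 to 34959238, GRCm38), whose products fold stress-damaged proteins. Hspa1a had 76 reads (control), 107 (KD-1) and 185 (KD-2). KD-2 was highest, and its log2 fold change against control was 1.17 (interval 0.78 to 1.58, 2.25-fold). In KD-1 the value was 0.26, with an interval from -0.17 to 0.71 that includes 0.

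Hspa1b had 254 reads (control), 265 (KD-1) and 488 (KD-2). KD-2 again stood apart from the other 2 libraries, at a log2 fold change of 0.83 (interval 0.61 to 1.06, 1.78-fold) against control. In KD-1 Hspa1b was at -0.17 (interval -0.42 to 0.09), so that a difference was not detectable at this depth. Hspa1a made up 23.0% of the reads of both genes (control), 28.8% (KD-1) and 27.5% (KD-2). The exons of Hspa1a overlap Gm20481, which is not among the counted genes, on the opposite strand, and which strand was counted is not given in the sources used here. The constitutive Hspa8 exceeded both together, per length, 723-fold (control), 819-fold (KD-1) and 293-fold (KD-2). The shared sequence of all 3 genes and the exon lengths used touch this ratio. Fibroblast marker level, given above, was also highest in KD-2, and its part in the values of Hspa1a and Hspa1b was not tested.

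Hspa8, the constitutive HSP70 of the cytosol (chromosome 9, 40800984 to 40810087), had 361324 reads (control), 459993 (KD-1) and 298175 (KD-2). It lay on opposite sides of control in the knockdown libraries. In log2, KD-1 differed from control by 0.12 (interval 0.11 to 0.13) and KD-2 by -0.38 (interval -0.39 to -0.38), both under 1.5-fold. Its exons overlap small nucleolar RNA genes of the Snord14 family on the same strand.

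HSP70 partners were Hsph1 and Dnajb1. Hsph1, on chromosome 5 from 149614287 to 149636376, had 8730 reads (control), 16695 (KD-1) and 9506 (KD-2). KD-1 stood apart from the other 2 libraries, at a log2 fold change of 0.71 (interval 0.67 to 0.74, 1.63-fold), while KD-2 was at 0.02 (interval -0.03 to 0.06). Dnajb1, the J-domain protein that delivers substrates to HSP70, lies on chromosome 8 from 83608193 to 83612653. It had 5079 reads (control), 6218 (KD-1) and 5900 (KD-2), with log2 values of 0.06 (KD-1) and 0.11 (KD-2), and the 3 libraries differed little after scaling. In KD-1, Hsph1 was thus past the threshold where its partner genes Hspa8 and Dnajb1 were not.

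The cytosolic HSP90 genes were lower in KD-2 than in control. Hsp90aa1, the inducible isoform (chromosome 12, 110690605 to 110702728), had 437594 reads (control), 376320 (KD-1) and 289038 (KD-2). Control was highest, and in log2 KD-1 differed from it by -0.45 (interval -0.45 to -0.44) and KD-2 by -0.71 (interval -0.71 to -0.70, 1.63-fold lower). Of the 10 genes Hsp90aa1 was lowest relative to control in both knockdown libraries.

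Hsp90ab1, the constitutive isoform (chromosome 17, 45567775 to 45573271), had 190318 reads (control), 222705 (KD-1) and 144614 (KD-2). Control and KD-1 lay together, at a log2 fold change of -0.00183 (interval -0.01 to 0.01), and KD-2 was at -0.50 (interval -0.51 to -0.49), under the threshold. Reads of Hsp90aa1 per read of Hsp90ab1 were 2.30 (control), 1.69 (KD-1) and 2.00 (KD-2), so that the ratio of the isoforms was highest in control.

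The mitochondrial pair kept a near-constant ratio. Hspd1 (HSP60, chromosome 1, 55077835 to 55088243) had 142820 reads (control), 159762 (KD-1) and 96914 (KD-2), and Hspe1 (HSP10, chromosome 1, 55088132 to 55091307) had 47291, 51667 and 32192. Control and KD-1 lay close together for both genes and KD-2 was lowest. In KD-2 the log2 fold changes were -0.67 for Hspd1 (interval -0.68 to -0.65) and -0.66 for Hspe1 (interval -0.68 to -0.64), and in KD-1 they were -0.07 and -0.10. Reads of Hspe1 per read of Hspd1 were 0.331 (control), 0.323 (KD-1) and 0.332 (KD-2). These are the genes that share the 4-unit element printed above. Their first exons overlap on opposite strands, where reads cannot be assigned without the strand. Hspa9, the mitochondrial HSP70, which imports and folds matrix proteins, had log2 values of -0.08 (KD-1) and -0.46 (KD-2).

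Hspb1, a small heat shock protein that also binds actin (chromosome 5, 135887919 to 135889563), had 8725 reads (control), 12511 (KD-1) and 11604 (KD-2). Both knockdown libraries were above control, at log2 fold changes of 0.29 (interval 0.25 to 0.33) in KD-1 and 0.30 (interval 0.26 to 0.34) in KD-2, both under 1.5-fold. KD-1 against KD-2 was at -0.01 (interval -0.05 to 0.02), but this likeness depends on the scaling, since with TMM the value was -0.07, with DESeq2's size factors -0.12, with library totals -0.18 and with upper quartiles over genes averaging at least 10 reads -0.06, all outside that interval. Fibroblast markers, given above, lay under control in KD-1 and over it in the KD-2 library, and their part in the values of Hspb1 was not tested.

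Position among all genes was also described by level, with bins chosen after the values were seen. Among 509 genes averaging at least 100 RPKM, the median log2 value was -0.06 (KD-1) and -0.38 (KD-2), and 24.2% were past 1.5-fold below control in KD-2. The 6 chaperone genes in this bin (Hsp90aa1, Hspa8, Hsp90ab1, Hspd1, Hspe1 and Hspb1) had medians of -0.03 (KD-1) and -0.58 (KD-2). Among 5619 genes under 1 RPKM, the bin of Hspa1a, the median was 0.15 (KD-1) and 0.20 (KD-2), and 27.3% were past 1.5-fold above control in KD-2. Among 6236 genes from 1 to 10 RPKM, the bin of Hspa1b, 15.1% were. The 3683 genes from 10 to 100 RPKM, which include Hsph1 and Dnajb1, had a median of -0.23 in KD-2. Over all genes in KD-2, the bin medians were thus lower at higher level. The chaperone genes did not follow this order throughout. Hspb1, at 117 RPKM in control, had a higher fold change in KD-2 (0.30) than the less expressed Dnajb1 (0.11) and Hsph1 (0.02), and Hspa8, second in level, was at -0.38, the least lowered of the first 5.

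When KD-1 and KD-2 were treated as replicates of the knockdown, the quasi-likelihood test of edgeR called 0 of the 10 genes and 4 of 21164 genes (0.0189%). Its spread comes from KD-1 and KD-2 alone, with 1 residual degree of freedom. None of the 10 had an unadjusted p under 0.05 in it, where only 293 of the 21164 genes did, so that 0 of 10 is near the share of all genes. The unadjusted edgeR p-values of the 10 ran from 0.166 for Hspa1a (log2 fold change 0.81) to 0.844 for Hspa8 (log2 fold change -0.10). Hsp90aa1 was at -0.56 (unadjusted p = 0.275 by edgeR) and Hsph1 at 0.41 (0.322). The edgeR adjusted p was 1.00 for all 10. Nup153 itself, at -1.19 and an unadjusted p of 0.00315, was not called by this test either.

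The regulators and other chaperones are described from lists, whose counts stand beside the shares of all genes past 1.5-fold, 8.63% above and 5.62% below control in KD-1 and 17.1% above and 10.2% below in KD-2. Hsf1, the main factor of the heat shock response, had 316 reads (control), 478 (KD-1) and 341 (KD-2), at log2 fold changes of 0.37 and 0.00287 against control. Hsf2, which forms trimers with HSF1, had 3857, 4425 and 2769 reads, with log2 values of -0.03 (KD-1) and -0.58 (KD-2). Of the 6 genes in the list, which are 5 heat shock factors and Hsbp1, a protein that binds HSF1, 1 was past 1.5-fold above and 1 below control in KD-1, and 1 above and 2 below in KD-2. Hsf3 was lower in both, at -0.69 and -1.33, and Hsf2 in KD-2 lay at the threshold itself and was past it under none of the other scalings. The higher gene was Hsf5 in both, with 24, 76 and 66 reads, named after its values were seen.

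Among 11 other HSP70 and HSP110 genes, 0 were past 1.5-fold in KD-1, and 3 were past it above control in KD-2, beside 17.1% of all genes. These were Hspa2, which acts in spermatogenesis, at 1.08 in KD-2 (249 reads in control, 568 in KD-2), Hspa12b at 0.92 and Hspa12a at 0.65. Hspa4, an HSP110 relative of Hsph1 at 157 RPKM in control, had log2 values of 0.04 (KD-1) and -0.51 (KD-2), and did not share the value of Hsph1 in KD-1. Hspa1l, which lies beside Hspa1a and shares sequence with it, had 52, 43 and 62 reads.

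Among 40 tested genes of the other HSP40 list, 2 were past 1.5-fold below control in KD-1, Dnaja4 at -0.90 and Dnajb4 at -0.67. In KD-2, 4 were above and 4 below, under or near the shares of all genes (17.1% and 10.2%), and with library totals 6 were above and 2 below. Among them were Dnajc6, the auxilin that uncoats clathrin vesicles, at -0.98 and Dnajb5 at 0.73. Dnajb4, picked after its values were seen and at 0.62 in KD-2, had 2956 reads (control), 2179 (KD-1) and 4886 (KD-2), so that its order followed that of the fibroblast markers. The part of fibroblasts in it was not tested. Of 7 tested small heat shock protein genes besides Hspb1, 1 was past 1.5-fold below control in KD-1 and 2 above it in KD-2, Hspb6 at 0.71 and Hspb2. Hspb2, named after its values were seen, was also the lower gene in KD-1, with 13, 8 and 37 reads. The counts of this list depend on the scaling, with 3 below control in KD-1 with DESeq2's size factors (Hspb2, Hspb11 and Cryab) and 3 above it in KD-2 with library totals (Hspb2, Hspb6 and Hspb8).

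Among 24 cochaperones of HSP90 and HSP70, 0 were past 1.5-fold in KD-1, and 4 were above and 2 below in KD-2. Both KD-2 counts are near the background of 17.1% above and 10.2% below, and with library totals 4 were above and 0 below. Stub1, a ubiquitin ligase that marks HSP70 clients for degradation, was at 1.04 in KD-2 (594 reads in control, 1313 in KD-2). Bag2 and Bag3, exchange factors of HSP70, were at 0.86 and 0.76, and Ppid, a peptidyl-prolyl isomerase bound to HSP90, was at -0.68. The median of the list was -0.27 in KD-2, beside -0.02 over all genes. The HSP90 cochaperones Ahsa1, Stip1 and Chordc1, picked with their values in view, were at -0.43, -0.41 and -0.57 in KD-2 and were not past the threshold. Of the 24 genes, 14 lay below control in KD-2 and 10 above it.

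The 9 genes listed for the TRiC chaperonin, which folds actin and tubulin, were below control in KD-2, between -0.59 and -0.25, and were so under every scaling run. In KD-1 they lay between -0.15 and -0.00945, and with upper quartiles over genes averaging at least 10 reads 2 of the 9 were above 0. Cct5 was past 1.5-fold below in KD-2 (10.2% of all genes were) but under none of the other scalings. The median in KD-2 was -0.56, and over the 8 that average at least 100 RPKM, all but Cct6b, it was -0.53, beside -0.38 over all genes of that level. Of 12 mitochondrial chaperones and proteases, 0 were past 1.5-fold in either knockdown, with medians of -0.03 (KD-1) and -0.26 (KD-2). Of 16 chaperones of the endoplasmic reticulum, 2 were past 1.5-fold below control in KD-1 (Pdia6 at -0.59, at the threshold itself, and Serpinh1) and 1 above it in KD-2 (Serpinh1). With upper quartiles over genes averaging at least 10 reads, Pdia6 was not past it. Serpinh1, the collagen chaperone HSP47, had log2 values of -0.87 (KD-1) and 0.89 (KD-2), in the order of the fibroblast markers, while Hspa5 (BiP) was at -0.23 and -0.21.

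The ES cell markers had a summed level of 3351 RPKM (control), 3837 (KD-1) and 2625 (KD-2). Dppa5a alone made up 1665, 2107 and 1249 RPKM of it, and without this gene, singled out after its values were seen, the sums were 1686, 1730 and 1376. KD-2 was lowest with and without it, as for Hsp90aa1, Hsp90ab1, Hspa8, Hspd1 and Hspe1. Of these 10 markers, 3 were past 1.5-fold below control in KD-2 (10.2% of all genes were), Zfp42 at -0.70, Dppa4 at -0.67 and Tdgf1 at -0.61, beside Hspd1 at -0.67 and Hsp90aa1 at -0.71. At the level of Dppa4, 10 to 100 RPKM, the share was 10.7%. Zfp42, Tdgf1, Hspd1 and Hsp90aa1 average at least 100 RPKM, where 24.2% of genes were past 1.5-fold below control. With library totals 0 of the 10 were past it below control, and with TMM 2 were (Zfp42 and Dppa4). In KD-2, 7 of the 10 lay below control, among them Dppa5a at -0.57, Sox2 at -0.31, Nanog at -0.29 and Pou5f1 at -0.21. The 3 above it were Esrrb at 0.22, Klf4 at 0.15 and Utf1 at 1.17, and Utf1 was at 0.69 in KD-1. Utf1 was thus the 1 marker past 1.5-fold above control in each library, beside 8.63% of all genes (KD-1) and 17.1% (KD-2), and 0 of the 10 were past it below in KD-1. Of 5 tested primitive endoderm markers, 1 was past 1.5-fold above control in KD-1 (Sox17) and 2 were in KD-2 (Gata6 and Dab2), named after their values were seen and beside 8.63% and 17.1% of all genes. The summed level of all 6 listed, the untested Foxa2 included, was 1.33 to 2.00 RPKM. The part of cell composition in the chaperone values was not tested.

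The pattern over the 3 libraries was compared with that of 7873 other genes averaging at least 1000 reads, by the distance between pairs of log2 fold changes in KD-1 and KD-2. Nearest to Hsph1 were Tmem231 (distance 0.04), Arhgef7 (0.06) and Ldhb (0.08). Nearest to Hspa1a were Arhgef40, Col4a2 and Hist1h3e, at distances up to 0.10, and nearest to Hspe1 was Ssrp1 (0.0035). For Hsp90aa1, the nearest genes were Ormdl2, Stx3 and Cetn3, at distances up to 0.02. With 3 libraries many genes share any pattern, so this is a description only.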

How the data were processed

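Per the labels and methods, the authors trimmed reads with Trim Galore 0.4.1, mapped them with TopHat2 2.1.1 to mm10 (GRCm38), and deposited raw read counts per gene for 3 libraries, without normalization. The methods name featureCounts, with a mapping quality filter, and the labels HTSeq as the counting tool, so whether that filter applies to these counts is not settled. The 5 lines that sum unassigned reads, 23.0% to 25.6% of each library, were left out. Libraries were scaled by upper-quartile normalization with edgeR 4.0.16 in R 4.3.3, and log2 fold changes were computed with a pseudocount of 0.5 reads and called only where a gene averaged at least 10 reads. The study's fixed dispersion from spike-ins was not used here, since with 1 library per condition it would compare libraries. Both knockdown libraries were tested as a group with the quasi-likelihood test of edgeR (TMM scaling), with Benjamini-Hochberg adjustment over genes with a read, and with DESeq2 1.42.0 as an alternative. The test was run on simulated data first. RPKM used the union of exons in GENCODE M21 (GRCm38), which includes retained introns, matched by symbol. Promoters are RefSeq's for GRCm38.p6. The counts differ in depth by library, and intervals cover counting error only. Whether the libraries come from separate cultures beyond the shRNA is not stated. The p-values rest only on the spread between the KD-1 and KD-2 libraries, which carry different shRNAs. Named genes were all members, Nup153, Hsf1, Hsf2 and, for each list, up to 4 genes past 1.5-fold with a mean of at least 100 reads. Others, such as Hspa4, Hspa9, Hspa1l, Ahsa1, Stip1, Chordc1, Hspa5, Pou5f1 and Nanog, were picked with their values in view. The members and lists were chosen with earlier results of these data known. Alternatives were TMM, DESeq2's size factors, library totals, upper quartiles over genes averaging at least 10 reads, a pseudocount of 5, no minimum of reads and a threshold of 2-fold.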

Additional observations from a re-analysis of the deposited data

Results flagged for a closer look

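Hspa8 was the chaperone gene whose knockdown libraries lay on opposite sides of control with counting intervals that both leave out 0. In log2, KD-1 differed from control by 0.12 and KD-2 by -0.38, a difference of 0.50 between KD-1 and KD-2. With 1 library each, this difference was not tested.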

How the results depend on the processing

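The count of chaperone genes past 1.5-fold was 1 in KD-1, 5 in KD-2 and 4 in KD-1 against KD-2. With a threshold of 2-fold these counts were 0, 1 (Hspa1a) and 1 (Hspa1b). With library totals the count in KD-2 was 2 (Hspa1a and Hspa1b), and in KD-1 against KD-2 it was 2. That scaling also moved Hsph1 to 0.52 between KD-1 and KD-2. The causes were not tested. Shares of all genes were taken only at 1.5-fold under the main scaling, so the counts at other settings have no background beside them. Hspd1 was past 1.5-fold between KD-1 and KD-2 under upper-quartile normalization over all genes and under none of the other scalings, with a median over all genes of 0.12 in that comparison. Of 150 fold changes of single members under the other scalings and the pseudocount of 5, 2 had another sign than reported. These were Dnajb1 in KD-1 at -0.00247 with DESeq2's size factors and Hsp90ab1 in KD-1 at 0.0119 with upper quartiles over genes averaging at least 10 reads, both close to 0. Only 74 of the 150 lay within the counting interval of the reported value. Hspa8 in KD-1, reported at 0.12, was at 0.05 with DESeq2's size factors. Hspd1 in KD-2, reported at -0.67, was at -0.51 with library totals. The intervals thus do not cover the choice of scaling. No setting of the quasi-likelihood test, and not the Wald test of DESeq2, called any of the 10 genes. No paired analysis was possible because each group has 1 library. Left with a single knockdown library, the group comparison has no residual degrees of freedom, and its values are those of the other library. Depth limits Hspa1a and Hspa1b most.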
